A study of Mus musculus with 76 samples.

Results

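Genes of the growth hormone and STAT5 axis were followed in RNA-seq counts of visceral fat, heart and kidney. They were 10 of the 54232 genes in the count table: Cish, Socs1, Socs2, Socs3, Ghr, Igf1, Stat5a and Stat5b, taken by name, and Sult1e1 and Cyp2f2, taken because they were higher in fat after partial nephrectomy. For those last 2 genes the values in fat with and without nephrectomy are therefore a description, without a test. All mice were male Fox Chase SCID mice (CB17/Icr-Prkdcscid/IcrlcoCrl) aged 12 weeks, and the controls carried the scid allele too, which leaves mice without mature B and T lymphocytes. The arms were sham surgery without cells (Sham), partial nephrectomy without cells (PNx), and partial nephrectomy with transplanted control cells, with cells labelled Lenti-adipo-scrambled, or with cells labelled Lenti-adipo-NaKtide. NaKtide is a peptide that blocks signalling from the Na/K-ATPase to the kinase Src, and the scrambled construct is its control. The labels do not say which cells were transplanted, so the 3 cell arms are called control, scrambled and NaKtide cells here. Each of the 15 groups had 5 samples except scrambled cells in visceral fat, which had 4, for 74 samples in all. The labels do not say that samples came from separate animals, and p-values then measure only the spread between these samples.

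Growth hormone binds its receptor Ghr, which activates the kinase JAK2 and, through it, the transcription factors STAT5A and STAT5B. Phosphorylated STAT5 dimers enter the nucleus and switch on target genes, among them Igf1, the insulin-like growth factor, and Cish, Socs1, Socs2 and Socs3, whose SH2-domain proteins bind the receptor or the kinase and damp the signal. Cish is a classical immediate STAT5 target, while Socs3 also answers to interleukin 6 through STAT3. Sult1e1 encodes estrogen sulfotransferase and Cyp2f2 a cytochrome P450 best known from lung and liver.

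Library totals had a median of 7807674 counts in visceral fat, 8495773 in heart and 9245409 in kidney, and the shallowest library, kidney control cells 5, held 1241590. The fat libraries were fat: each of the 8 adipocyte markers was above 0 in every one, with Adipoq between 248 and 2645 CPM (counts scaled to a common library size). Sham libraries 1, 3, 4 and 5 of visceral fat also held 6794 to 25977 CPM of 11 summed epididymis markers, against 214 in Sham 2 and at most 71.8 in the other 19 samples. Summed adipocyte markers were 3108 to 13117 CPM in those 4 libraries, 21886 in Sham 2 and 20967 to 24012 in PNx. Scrambled-cell fat libraries held 461 to 33901 CPM of skeletal muscle markers. Sham held 6.27 to 8965 CPM of them (median 31.9), against at most 70.2 in the other arms. PNx 3 and control cells 3 and 5 held 2421 to 10774 CPM of liver markers. Scrambled-cell libraries also held up to 24771 CPM of pancreas acinar markers, against at most 14.1 in the other arms of visceral fat. Summed macrophage markers were 241 to 503 CPM in fat Sham and 585 to 1180 in PNx, without overlap. Member values against visceral fat Sham are therefore also given without Sham 1 and 4 or against Sham 2 alone. In the fit with 1 Sham library the other arms supply the spread, no gene at all was called, and its p-values carry no information about stability.

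STAT5 dimers bind DNA at TTCNNNGAA, a motif that reads the same on both strands. It was searched for in RefSeq promoter windows of 300 bases (GRCm38.p6, 250 before to 50 after each start), which exist for 9 members. At least 1 match was present in 2726 of 32851 windows (8.3%) and 2 or more in 150 (0.457%). Among the members, Cish held 2 matches and Socs3 held 1, and the windows of Socs1, Ghr, Igf1, Stat5a, Stat5b, Sult1e1 and Cyp2f2 held none. The 30 bases around these matches are shown because the text turns most on these 2 feedback genes, with the motif in capitals. The Cish pair lies at chr9:107296654-107296683 on the plus strand, starting 0 and 11 bases from the RefSeq start, in tandem. The Socs3 match lies at chr11:117969501-117969530 on the minus strand, at -154 from the start.
Cish: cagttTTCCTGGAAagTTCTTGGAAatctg
Socs3: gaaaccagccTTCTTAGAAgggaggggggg
A match describes these letters only, and binding was not measured.

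Levels between genes were compared per length, as the FPKM values the authors deposited. In visceral fat the receptor Ghr had the highest median over the 24 samples, 70.8 FPKM, followed by Sult1e1 at 20.4, Cyp2f2 at 17.6 and Igf1 at 13.5 FPKM. Stat5b (9.57) and Stat5a (8.74) had medians close together, and their ranges, 4.07 to 19.6 and 2.86 to 14.5 FPKM, overlapped in part. The feedback genes were the lowest there: Socs3 at 2.17, Cish at 2.09, Socs2 at 1.07 and Socs1 at 0.656 FPKM. In heart, Ghr (17.7 FPKM) was followed by Stat5b (13.2) and Cish (9.26), while Igf1 had a median of 0.854 FPKM. In kidney, Ghr reached 54.5 FPKM, Stat5b 5.97 and Cish 3.38, and Igf1 0.491. Igf1 in fat did not overlap its levels in heart or kidney, since its lowest fat value, 2.24 FPKM, lay above the highest heart value of 1.64. Sult1e1 was at 0 counts in 21 of 25 heart and 20 of 25 kidney samples, and it was not tested in either. By plain library totals, without TMM scaling, 3 counts correspond to at most 1.07 CPM in heart and 2.42 in kidney. Cyp2f2 failed the filter on low counts in heart, as did Socs1 in kidney, so 8 members were tested in each of those tissues and 10 in fat.

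**Figure D1:**
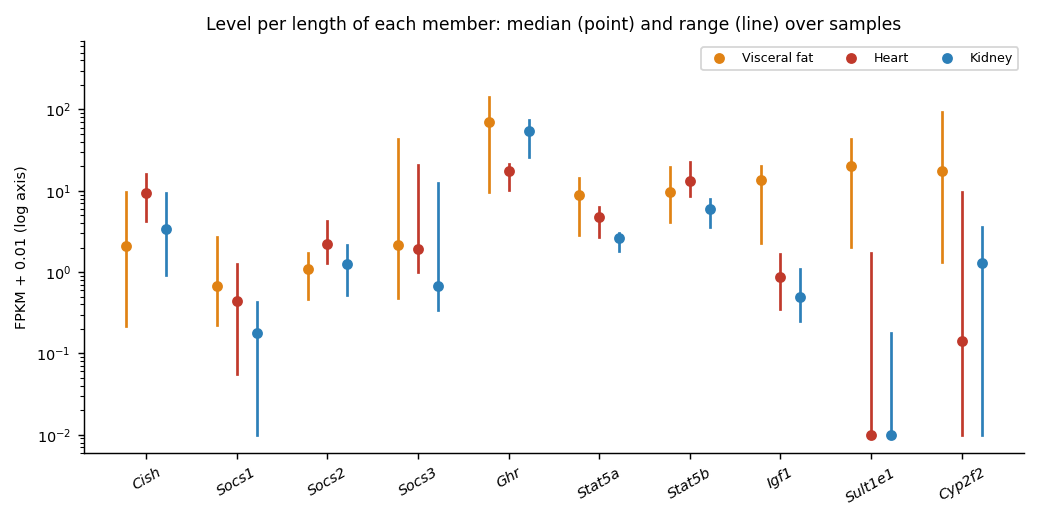
Deposited FPKM (log axis, 0.01 added) of each member, with the median as a point and the range over 24 visceral fat, 25 heart or 25 kidney samples as a line. Ghr had the highest median in each tissue, and Igf1, Sult1e1 and Cyp2f2 had their highest medians in visceral fat.

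In visceral fat, Cish was higher in PNx than in Sham. Sham samples measured 9.76, 1.58, 16.3, 6.11 and 7.73 CPM and PNx samples 57.9, 66.7, 25.4, 73.1 and 42.7 CPM. The groups did not overlap, and the log2 fold change was 2.67 (SE 0.563, adjusted p = 0.00359 by edgeR's quasi-likelihood test, n = 5 and 5). Cish is gene ENSMUSG00000032578 at chr9:107296026-107302784 on GRCm38. It overlaps the transcribed processed pseudogene Gm17040 and the antisense gene Gm17041, both on the opposite strand. Their reads could be counted with Cish where strand was not used. Sham 2, the Sham library with most adipocyte and least epididymis transcripts, had the lowest Cish value. Without Sham 1 and 4 the log2 fold change was 2.62 with an adjusted p of 0.0505 by edgeR. With Sham 2 as the only Sham library it was 5.07 (adjusted p = 0.751 by edgeR). With summed adipocyte markers as a covariate, added after the data were seen, it was 3.29 (adjusted p = 0.0433 by edgeR).

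Socs1, which blocks JAK kinases directly, was also called higher. Its Sham values were 0.976, 2.1, 2.09, 0.728 and 1.29 CPM and its PNx values 2.8, 4.57, 3.48, 6.69 and 3.39 CPM, a log2 fold change of 1.53 (SE 0.411, adjusted p = 0.0172 by edgeR). No values overlapped. The edgeR call was lost without PNx 4 (1.30, adjusted p = 0.0544), without Sham 1 (1.42, 0.0593), without Sham 4 (1.38, 0.0628), without Sham 1 and 4 together (1.19, 0.205) and with the adipocyte covariate (1.21, 0.303).

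Socs2 and Socs3 did not pass in this comparison. Socs2, whose protein targets the growth hormone receptor for degradation, ranged from 5.16 to 19.7 CPM in Sham and from 9.69 to 18.8 CPM in PNx (log2 fold change 0.46, SE 0.334, adjusted p = 0.408 by edgeR), and was at 1.06 (0.107) without Sham 1 and 4 and at 0.94 against Sham 2 alone. Socs3 measured 2.28, 6.84, 3.62, 1.6 and 3.52 CPM in Sham and 5.26, 6.54, 11.1, 17.2 and 11.8 CPM in PNx. Only Sham 2 reached into the PNx range, and the difference of 1.54 on the log2 scale did not pass (adjusted p = 0.103 by edgeR). Without Sham 2 it was 1.89 (adjusted p = 0.0444), while against Sham 2 alone it was 0.60 (0.919).

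**Figure D2:**
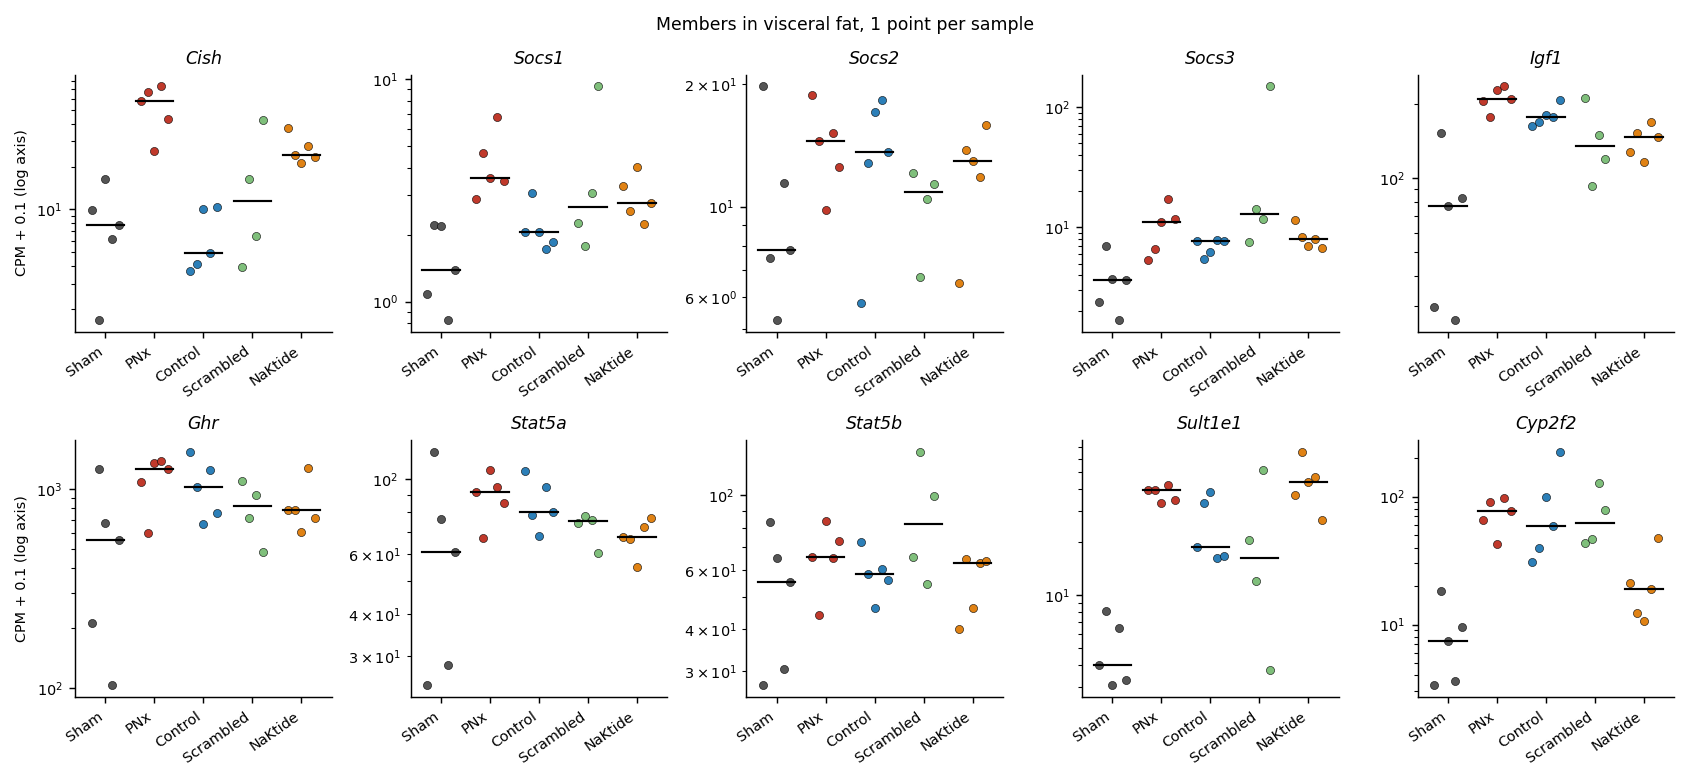
CPM of each member in visceral fat (log axis, 0.1 added), 1 point per sample and a bar at the arm's median. Cish lies at 25.4 to 73.1 CPM in PNx, 21.2 to 36.9 in NaKtide cells and at most 16.3 in Sham and 10.3 in control cells, and 1 scrambled sample stands at 149 CPM of Socs3.

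Of the receptor, the transcription factors and Igf1, only Igf1 was called in fat after nephrectomy. Its Sham values were 29.6, 152, 76.6, 26.3 and 83.2 CPM and its PNx values 207, 178, 228, 237 and 210 CPM (log2 fold change 1.53, SE 0.333, adjusted p = 0.00474 by edgeR). The groups did not overlap, yet Sham 2 lay at 152 CPM, and with it as the only Sham library the log2 fold change was 0.48 (adjusted p = 0.863). Without Sham 1 and 4 the value was 1.03 (0.0199), with the adipocyte covariate 0.71 (0.195), and in a fit of only these 2 arms 1.51 (0.0798). Igf1 overlaps the antisense gene Igf1os.

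Ghr measured 211.9, 1258, 671.5, 103.2 and 551.1 CPM in Sham and 1086, 598.5, 1354, 1373 and 1258 CPM in PNx. Its log2 fold change of 1.02 (SE 0.450) did not pass (adjusted p = 0.143 by edgeR), and the sign turned with Sham 2 as the only Sham library (-0.15) and with the adipocyte covariate (-0.19). Without Sham 2 it was 1.56 with an adjusted p of 0.0123. Stat5a was at 0.52 on the log2 scale (adjusted p = 0.263 by edgeR) and Stat5b by 0.35 (0.461), and both also turned negative against Sham 2 alone, at -0.44 and -0.32. Stat5a and Stat5b are neighbouring, near-identical genes on chromosome 11, so reads may have been split between them, and the end of Stat5a overlaps Stat3.

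Ghr, Igf1 and Stat5a followed the adipocyte markers across the 24 fat samples, with Spearman rho of 0.73, 0.688 and 0.655 between each gene's log2 CPM and the summed markers. For Cish rho was 0.104, and for Socs2 0.011. With summed skeletal muscle markers rho was -0.639 for Socs2 and -0.528 for Igf1, and between -0.334 and 0.185 for the other members. With summed epididymis markers rho was negative for every member, from -0.591 for Cyp2f2 to -0.217 for Stat5b. It was -0.427 for Socs3, -0.403 for Igf1 and -0.294 for Cish, and the part of that tissue was not tested. With the summed macrophage markers, which were higher in every PNx than in every Sham sample, rho was 0.516 for Cish, 0.57 for Socs1, 0.541 for Sult1e1 and 0.516 for Cyp2f2, and their part in those differences was not tested. These are descriptions over samples that share libraries and arms. In bulk tissue, fewer cells of a type and less RNA per cell cannot be told apart. The covariate above cannot fully separate the adipocyte share from nephrectomy in the Igf1 difference, since the adipocyte markers differed between the 2 arms. They were 20967 to 24012 CPM in PNx and 3108 to 21886 in Sham, where only Sham 2 reached the PNx range.

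**Figure D3:**
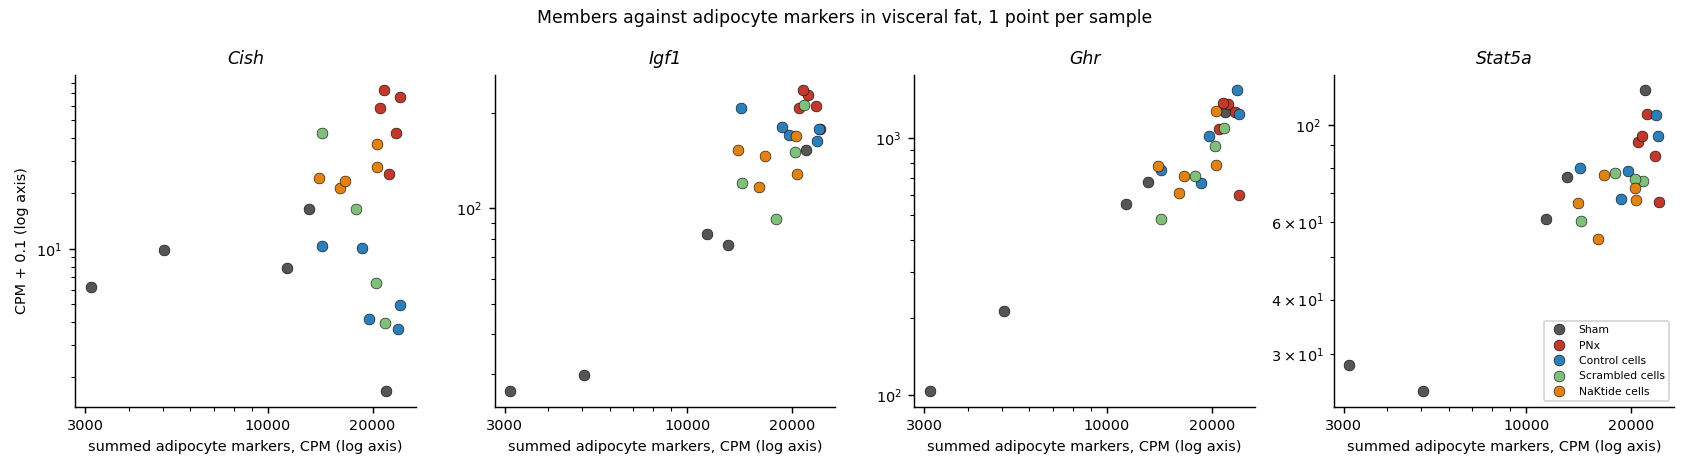
CPM of Cish, Igf1, Ghr and Stat5a (log axis, 0.1 added) against the summed CPM of 8 adipocyte markers (log axis) in visceral fat, 1 point per sample, coloured by arm. Sham 1 and 4, at 5064 and 3108 CPM of markers, are lowest for Igf1, Ghr and Stat5a, whereas Cish in Sham 2 is lowest at 21886 CPM of markers.

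Counted together, 3 of the 8 members taken by name, with earlier results of these data known, were called in visceral fat, all higher, where 13% of the 17552 genes tested were called in either direction, 4.83% higher and 8.18% lower. All 8 had a log2 fold change above 0, with a median of 1.27 against 0.0077 over all genes tested. DESeq2 also called 3 of the 8, among 3154 genes in all, and limma-voom with quality weights called 6, among 4647. The count was 1 without Sham 1 and 4, where edgeR called 551 genes in all. Against Sham 2 alone 3 of the 8 (Ghr, Stat5a and Stat5b) were below 0.

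Sult1e1 and Cyp2f2 define the difference they were chosen for. Sult1e1 measured 3.9, 8.06, 2.97, 6.4 and 3.16 CPM in Sham and 39.6, 39.6, 33.3, 42.4 and 34.6 CPM in PNx, a log2 fold change of 2.96. Cyp2f2 measured 3.25, 18.1, 7.36, 3.49 and 9.49 CPM in Sham and 66, 90.3, 42.7, 98.1 and 77.1 CPM in PNx, a log2 fold change of 3.17. For both genes Sham 2 had the highest Sham value, and against it alone the log2 fold changes were 2.24 and 2.06. The lung markers Scgb1a1, Scgb3a2, Sftpc, Sftpb, Sftpa1 and Sftpd summed to at most 2.71 CPM in any fat sample, whereas Cyp2f2 reached 100 and 225 CPM in control cells 3 and 5, the libraries with 5870 and 10774 CPM of liver markers. Cyp2f2 was also at 128 CPM in scrambled cells 3, an arm with at most 48.6 CPM of liver markers, and its rho with liver markers over the 24 samples was 0.093. Cyp2f2 also overlaps the antisense gene Gm15883 by 6194 bases, whose reads could be counted with it where strand was not used. The source of the Cyp2f2 reads in fat was not tested.

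Among the cell arms of visceral fat, Cish had its widest spread with scrambled cells and was called in no comparison by edgeR. It measured 3.58, 4.07, 9.99, 4.88 and 10.3 CPM with control cells, 36.9, 24.1, 21.2, 27.7 and 23.3 CPM with NaKtide cells, and 3.84, 16.3, 6.45 and 42.5 CPM with scrambled cells. All 5 control-cell samples lay below all 5 PNx samples (log2 fold change -3.003, SE 0.570, unadjusted p = 2.9e-05 by edgeR). The adjusted p was 0.509 by edgeR, which called 0% of genes in that comparison (442 at an unadjusted p under 0.05), 0.000111 by DESeq2 and 0.00233 by limma-voom. Without scrambled cells 2 and 4, which enter only the shared spread, edgeR gave 0.038, and leaving out any PNx or control-cell library kept the log2 fold change between -3.23 and -2.85.

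All 5 NaKtide samples lay above all 5 control-cell samples, in a comparison added after the values were seen. The log2 fold change was 2.01 (SE 0.551, adjusted p = 0.142 by edgeR, with 0% of genes called), and the adjusted p was 0.0208 by DESeq2 and 0.0787 by limma-voom. Without the liver-rich libraries PNx 3 and control cells 3 and 5 it was 2.67 (0.748 by edgeR). NaKtide samples overlapped PNx in PNx 3 alone (log2 fold change -0.996, adjusted p = 0.969 by edgeR). Ordered by mean ± SD, Cish stood at 53.2 ± 19.3 CPM in PNx, 26.7 ± 6.19 in NaKtide cells, 17.3 ± 17.6 in scrambled cells (n = 4), 8.29 ± 5.38 in Sham and 6.56 ± 3.3 in control cells (n = 5 each). Scrambled cells, at 3.84 to 42.5 CPM, overlapped both their neighbours in that order, NaKtide cells and Sham, and the means of Sham and control cells differed by less than their SDs.

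NaKtide against scrambled cells, the comparison of the peptide with its control, called 1 of 10 members in visceral fat, where 2.36% of genes were called. This was Socs3, with 11.5, 8.23, 6.87, 7.93 and 6.68 CPM with NaKtide cells and 7.43, 14, 11.6 and 149 CPM with scrambled cells (log2 fold change -2.46, SE 0.631, adjusted p = 0.0399 by edgeR). The groups overlapped, and without scrambled cells 4, the sample at 149 CPM, the log2 fold change was -0.41 (adjusted p = 0.681). That library also had the highest sums of macrophage markers (6891 CPM, against at most 1404 elsewhere in fat) and of neutrophil markers (302 CPM, against at most 70.8). The call was also lost by limma-voom (-0.76, adjusted p = 0.227).

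Cyp2f2 was the other member at the low end with NaKtide cells. It measured 21.1, 12.2, 10.6, 18.8 and 47 CPM with NaKtide cells, against 43, 46.3, 128 and 78.4 with scrambled and 30.6, 39.4, 100, 58.5 and 225 with control cells. Against scrambled cells the log2 fold change was -1.76 (SE 0.567, adjusted p = 0.0914 by edgeR, 0.034 by DESeq2), and NaKtide cells 5 alone overlapped. Against control cells it was -2.05 (SE 0.551, adjusted p = 0.133 by edgeR), and -0.97 (0.796) without those 3 liver-rich libraries. Sult1e1 did not follow it: 37, 65.7, 44.2, 47.1 and 26.6 CPM with NaKtide cells stood above 3 of the 4 scrambled samples (20.6, 11.9, 51.6 and 3.65; log2 fold change 0.995, adjusted p = 0.256 by edgeR). Without scrambled cells 3, the sample at 51.6 CPM, it was 1.87 (adjusted p = 0.0207 by edgeR). Of the other members, Stat5b was at -0.67 (adjusted p = 0.201) and the remaining 6 lay between -0.46 and 0.63.

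Against PNx, edgeR called none of the 8 members with control, scrambled or NaKtide cells in fat, where it called 0%, 1.82% and 0% of genes (1.79% higher with scrambled cells). At an unadjusted p under 0.05 there were 2, 2 and 0 members, among 442, 2822 and 652 genes. DESeq2 called 1, 1 and 0 members among 23, 990 and 30 genes, and limma-voom 1, 1 and 3 among 39, 2278 and 3795. Igf1 was lower with NaKtide cells, 128, 153, 117, 169 and 147 CPM, than in every PNx sample (log2 fold change -0.57, adjusted p = 0.969 by edgeR, 0.0246 by limma-voom).

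In heart no member was called after nephrectomy, where 0.126% of 15091 genes were called, with 0.113% lower. At an unadjusted p under 0.05 by edgeR there were 2 of 8 members, among 2387 genes in all. DESeq2 called 0 members among 423 genes, and limma-voom called 0 genes in all. Cish measured 54.8, 46.9, 48.6, 35.7 and 35.4 CPM in Sham and 55.5, 64.9, 76.1, 30.8 and 38.9 CPM in PNx (log2 fold change 0.27, SE 0.295, adjusted p = 0.687 by edgeR). All Sham values lay within the wider PNx range of 30.8 to 76.1 CPM, and 55.5, 64.9 and 76.1 CPM in PNx lay above every Sham sample. Socs1 (log2 fold change 2.14, SE 0.659, adjusted p = 0.168 by edgeR) and Socs3 (2.21, SE 0.758, 0.183) had the largest values. Heart Sham held up to 3041 CPM of proximal tubule markers (median 77.1), against at most 142 in the other heart arms. Sham 3 had the lowest heart total, 2803991 counts. Heart Sham 2 and 3 and PNx 5 are called doubtful below, and without them edgeR called 0 genes in all.

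The Socs3 value in heart came from a pair of libraries. Sham measured 3.65, 3.04, 3.64, 4.52 and 2.3 CPM, while PNx measured 48.8, 18.6, 3.34, 4.52 and 3.7 CPM. PNx 1 and 2 held 1186 and 528 CPM of neutrophil markers and the other 3 PNx libraries at most 17.4. The only other heart library near this was scrambled cells 3, with 50 CPM of Socs3 and 680 CPM of neutrophil markers. No member passed in any other heart comparison by edgeR, where 0% of genes were called, except that 1.17% were called with scrambled cells against PNx (0.49% higher and 0.683% lower). Heart Cyp2f2 was under 1 CPM in most samples and 16 CPM in PNx 4, a library with 1259 CPM of liver markers, while the lung markers summed to at most 0.36 CPM in any heart sample. The source of the Cyp2f2 reads in heart was not tested.

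In kidney, 3 of 8 members were called after nephrectomy, 1 higher and 2 lower, where 16.8% of 16307 genes were called, 9.25% higher and 7.56% lower. Ghr was lower, with 614, 612, 638, 688 and 580 CPM in Sham and 543, 511, 253, 354 and 370 CPM in PNx (log2 fold change -0.62, SE 0.187, adjusted p = 0.0346 by edgeR). The groups did not overlap. Stat5b was lower by a smaller step, from 39.4, 41.2, 38, 45.4 and 44.9 CPM to 34.3, 40.4, 23.5, 31.3 and 25.8 CPM (-0.42, SE 0.147, adjusted p = 0.04998). For both genes PNx 3, 4 and 5 were lowest. Summed proximal tubule markers were also lower without overlap, 7841 to 18854 CPM in PNx against 20434 to 23862 in Sham. Over the 25 kidney samples the neutrophil markers had a rho of -0.619 with Ghr and -0.761 with Stat5b. Liver, skeletal muscle, adipocyte and macrophage markers gave -0.528, -0.496, -0.486 and -0.479 with Ghr and -0.688, -0.664, -0.652 and -0.543 with Stat5b. Mesothelium and epididymis markers also had a negative rho with both genes. The part of these cells in either difference was not tested.

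Those 3 libraries also stood apart in RNA length. A length index, which is the mean log2 CPM of the shortest 25% of genes less that of the longest 25%, was 0.785, 0.601 and 0.775 in PNx 3, 4 and 5, against -0.43 and -0.537 in PNx 1 and 2 and -0.568 to -0.389 in Sham. With that index as a covariate Ghr was at -0.40 (adjusted p = 0.172 by edgeR) and Stat5b at -0.18 (0.34). Without PNx 3, 4 and 5 and control cells 4 and 5 they were at -0.25 (0.734) and -0.16 (0.819). Leaving out any 1 of the 5 Sham libraries, or PNx 3, 4 or 5, also ended both calls, with adjusted p from 0.0517 to 0.121 for Ghr and 0.0738 to 0.174 for Stat5b by edgeR.

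Socs3 was called higher in kidney on the strength of 1 library. Sham measured 1.61, 1.9, 0.97, 1.51 and 1.99 CPM and PNx 2.21, 1.55, 38.4, 2.59 and 1.26 CPM (log2 fold change 2.52, SE 0.756, adjusted p = 0.0347 by edgeR). Without PNx 3 the value was 0.24 (adjusted p = 0.752), and without any 1 of the Sham libraries it was 2.36 to 2.61 with adjusted p from 0.056 to 0.075 by edgeR. PNx 3 held 2112 CPM of neutrophil markers, against at most 84.6 in any other kidney library. Over all samples Socs3 had a Spearman rho with neutrophil markers of 0.634 in visceral fat, 0.425 in heart and 0.487 in kidney, and with macrophage markers of 0.823, 0.611 and 0.858. These are descriptions, and they rest in part on these few libraries. The part of these cells in the result was not tested.

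Cish did not pass in kidney, where Sham measured 48.4, 46.6, 14.6, 6.06 and 10.8 CPM and PNx 11.6, 10.4, 55.2, 23.9 and 8.69 CPM (log2 fold change -0.21, SE 0.584, adjusted p = 0.799 by edgeR). Both groups held samples at both the high and the low end. In the other kidney comparisons edgeR called 0% of genes and no member. At an unadjusted p under 0.05 there were 2 members with NaKtide against control cells and at most 1 elsewhere, DESeq2 called 0 throughout, and limma-voom called 1 each with NaKtide cells against PNx, among 6773 genes, and against control cells.

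**Figure D4:**
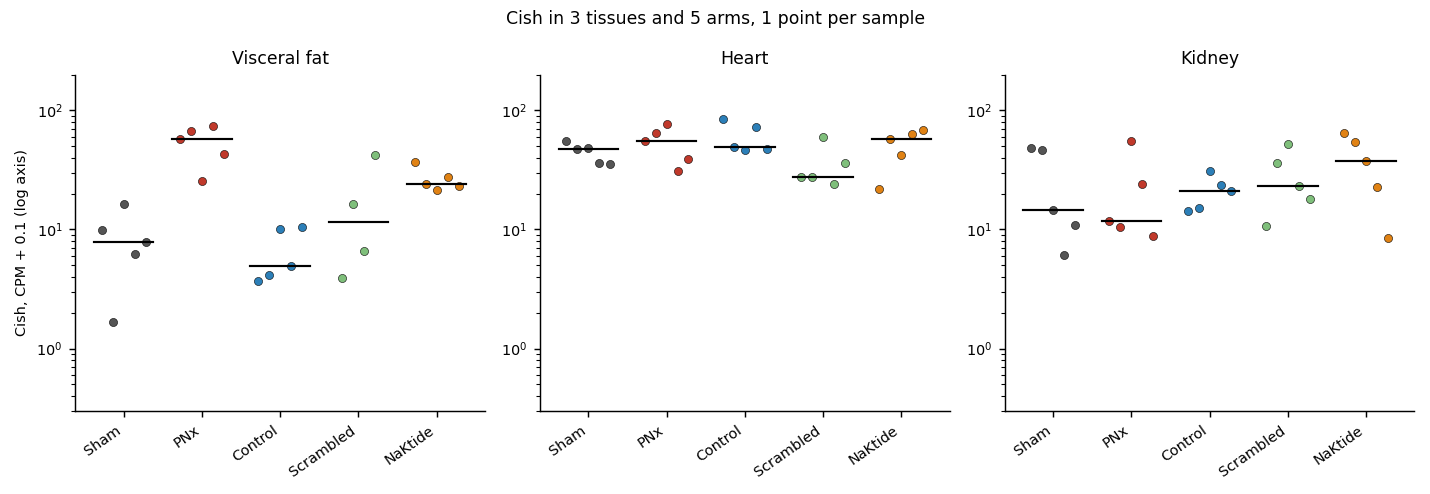
CPM of Cish (log axis, 0.1 added) by arm in visceral fat, heart and kidney, 1 point per sample and a bar at the median. PNx and Sham are apart in visceral fat and overlap in heart and in kidney.

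The PNx effects were compared directly between tissues in 1 fit of all 15 groups. The tissues share replicate numbers and may come from the same mice, which the labels do not say, and the fit treats all samples as independent. Cish differed between visceral fat and heart by 2.39 on the log2 scale (adjusted p = 0.0234 by edgeR) and between visceral fat and kidney by 2.97 (0.00335). Ghr differed between visceral fat and kidney by 1.68 (0.00705). Of all 19180 genes, 9.41%, 11.7% and 12% were called for visceral fat against heart, visceral fat against kidney and heart against kidney. No other member outside Sult1e1 and Cyp2f2 passed in any of the 3 pairs. With Sham 2 as the only visceral fat Sham library the 3 differences were 4.77 (0.344), 5.36 (0.209) and 0.50 (0.919). The doubtful kidney libraries were PNx 3, 4 and 5 and control cells 4 and 5. Without these and the doubtful heart libraries the 3 differences were 2.23 (0.0832), 3.83 (0.00626) and 1.24 (0.162). With only visceral fat Sham 4 left out, the Cish difference from heart was 2.29 (adjusted p = 0.0507 by edgeR). The differences were not fitted without Sham 1 and 4 together.

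**Figure D5:**
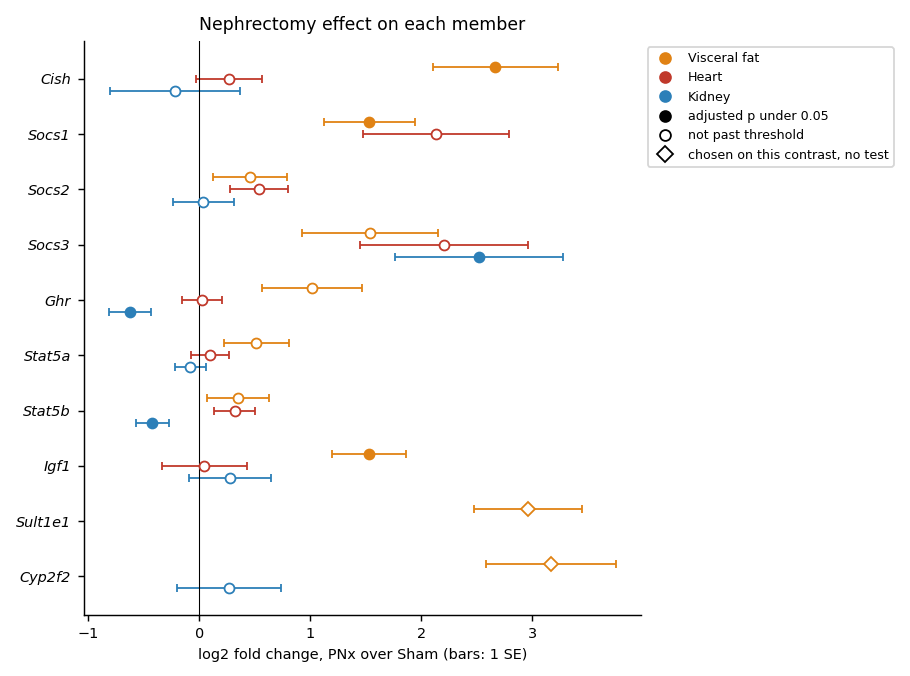
Log2 fold change of PNx over Sham for each member in 3 tissues, with bars of 1 SE. Filled points passed an adjusted p of 0.05, and diamonds mark Sult1e1 (2.96) and Cyp2f2 (3.17) in visceral fat, which were chosen on this contrast. Cish is at 2.67 in visceral fat, 0.27 in heart and -0.21 in kidney.

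Other genes of the axis came from 7 lists with 88 genes. In visceral fat after nephrectomy 13 of 77 tested were called higher and 5 lower, where 4.83% and 8.18% of all genes were. Without Sham 1 and 4 the counts were 3 and 1 of 76, with 551 genes called in all, and the 4 were Igfbp7 (1.18), Myc, Hp (1.60) and Stc1 (-1.65). The other values below are against all 5 Sham libraries, and those calls were lost without Sham 1 and 4, except that Sult2b1 was not tested there. None of the 17 genes of growth hormone receptor signalling (such as Jak2 and Irs1) passed. Of the IGF system, Igfbp4 (1.40) and Igfbp7 (1.07), which bind IGF1 or related ligands, were higher, and Stc1 (-1.92), an inhibitor of the protease PAPP-A, was lower. Of other SOCS and STAT5 target genes only Myc was called (12.2 ± 1.7 against 5.18 ± 1.1 CPM, log2 fold change 1.23, adjusted p = 0.000389 by edgeR), and it kept its call without Sham 1 and 4 (1.12, 0.00857). Among receptors that act through STAT5, Il3ra (1.37) and Csf2rb (1.61) were higher. Of STAT3 and acute cytokine genes, Hp, which encodes haptoglobin (1.97), and Cebpd (1.11) were higher.

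The families of the 2 fat genes were mixed. Of 8 tested Cyp2 genes 4 were higher and 1 lower in fat, where 4.83% and 8.18% of all genes were. The lowest p belonged to Cyp2d22 (1.47), Cyp2r1 (-1.67) and Cyp2e1 (1.48), and none of these calls remained without Sham 1 and 4. Of 7 tested sulfotransferases and their cofactor enzymes 1 was higher and 2 lower, namely Sult2b1 (-4.44), Papss1 (-0.95) and Sult1a1 (1.19). Without Sham 1 and 4, Papss1 was at -0.41 (adjusted p = 0.209 by edgeR) and Sult1a1 at 0.65 (0.279), while Sult2b1 did not pass the filter on low counts. With NaKtide against scrambled cells Pim1 (-2.32) and Saa3 (-6.79) were lower, and without scrambled cells 4 neither was called.

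In kidney after nephrectomy 7 of 74 were called higher and 12 lower, where 9.25% and 7.56% of all genes were, so the share called higher was near that of all genes. Receptor and signalling genes were among the lower ones: Irs2 (-1.61), Jak1 (-0.72), Igf1r (-0.80) and Insr (-0.78), and of the SOCS family Socs6 (-1.01) and Socs4 (-1.35), together with Ccnd1 (-0.70). Those higher included Pappa2 (1.73), Csf2rb (1.85) and Lcn2 (6.22), and Lifr (-0.62) and Il6st (-0.72) were lower. Cyp2u1 (0.96) and Cyp2j6 (0.44) were higher, and Sult1d1 (-1.06) and Papss2 (-0.91) lower. Without PNx 3 the counts were 0 and 1 of 74, the 1 being Irs2 (-1.62), and without all the doubtful libraries 0 of 76. In heart none of 65 passed.

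Members were also set against each other across samples. In heart Cish and Socs2 were correlated (Pearson r = 0.551, permutation p = 0.00413, adjusted p = 0.0372 over 9 relations; Spearman rho = 0.598, adjusted permutation p = 0.0176; n = 25). Without the 2 samples farthest from the median of Cish r was 0.557, and after subtraction of the arm means it was 0.702. In kidney the same pair had r = 0.495 (adjusted permutation p = 0.0514) and rho = 0.515 (0.0432), with r = 0.47 and 0.492 under those changes. In visceral fat r was 0.24 (adjusted permutation p = 0.321), and 0.087 after subtraction of the arm means. Cish with Socs3 gave r = 0.379, 0.255 and 0.314 in fat, heart and kidney, and Cish with Igf1 0.212, -0.23 and 0.221, with adjusted permutation p from 0.187 to 0.323. For Cish and Igf1 in fat r turned to -0.414 after subtraction of the arm means (unadjusted permutation p = 0.0457). Sult1e1 and Cyp2f2 in fat, given without a test, had r = 0.467, and 0.013 after subtraction of the arm means.

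Over the 24 visceral fat samples the genes most like each member were ranked by Spearman rho among 11261 genes of at least 2 mean log2 CPM. For Cish they were Safb (0.81), Pml (0.706) and Ndst2 (0.696), and for Socs2 Steap2 (0.781), Plscr2 (0.777) and Hsd17b11 (0.774). For Sult1e1 they were Emp2 (0.866), Htra1 (0.862) and Plppr3 (0.862), and for Cyp2f2 H2-T23 (0.853), Tcn2 (0.85) and Serpina3m (0.846). Such values are the extremes of a search and share the arms and libraries.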

How the data were processed

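RNA was measured by RNA-seq in 76 libraries of visceral fat, heart and kidney, and the second libraries of 2 samples were summed, leaving 74 samples in 15 groups. They were joined by their labels, as kidney Sham 3 and visceral fat scrambled cells 3. In kidney the 2 libraries correlated at r = 0.977, below the 14 other library pairs of that group (0.981 to 0.992), which does not show them to be 1 sample. In visceral fat r was 0.988, against 0.855 to 0.932 for the other pairs. The authors deposited counts per gene and FPKM values, and per the submitters' processing notes reads were trimmed with Trimmomatic 0.38, aligned with HISAT2 2.1.0 to GRCm38 and compared with DESeq2 1.20.0 or 1.20.1. The counting tool is not given in the sources used here, nor the strand setting. Deposited counts were tested with edgeR 4.0.16 (R 4.3.3; TMM, filterByExpr, quasi-likelihood F test), fitting the 5 arms of a tissue together, with Benjamini-Hochberg adjustment over all genes tested and calls at an adjusted p under 0.05. CPM are TMM-normalised, except sums of markers and floors, which use plain library totals, and log2 CPM have a prior count of 2. DESeq2 1.42.0 and limma 3.58.1 (voom with quality weights) were alternatives, and scripts were tested on simulated data. Floors take 3 counts and cover counting error only. Correlations used 100000 permutations, two-sided. The text names all 10 members, up to 3 called genes per pathway list with the lowest p, and the 3 most like genes of 4 members. Members and lists were chosen with earlier results of these data known. 1 called gene of the pathway lists is not reported here.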

Additional observations from a re-analysis of the deposited data

Results flagged for a closer look

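In groups of 4 or 5 samples, 1 sample stood far from the others by Dixon's test in 9 of 130 groups, and chance alone gives about 1 in 20. High samples were Socs3 in heart scrambled cells 3 (50 CPM) and kidney PNx 3 (38.4 CPM), and Socs2 in heart control cells 1 (28.6 CPM). Low samples, or samples apart in a narrow group, were Ghr in visceral fat PNx 2 (598 CPM), Stat5a in visceral fat scrambled cells 4 (60.3 CPM), Socs2 in kidney control cells 5 (4.94 CPM), and Cyp2f2 in kidney control cells 5 (0 CPM) and kidney Sham 5 (0.351 CPM). Kidney control cells 5 was the shallowest library (1241590 counts), where 3 counts are 2.42 CPM of the plain total. The 4 other control-cell samples held 2.19 to 3.38 CPM of Cyp2f2, so that 0 cannot be told from low depth. Socs3 in heart NaKtide cells 3 stood at 3.1 CPM.

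The effect of nephrectomy differed between tissues by a test of the difference itself for Cish between visceral fat and heart (2.39 on the log2 scale), Cish between visceral fat and kidney (2.97) and Ghr between visceral fat and kidney (1.68). Without the doubtful heart and kidney libraries only Cish between visceral fat and kidney passed. The Cish difference from heart was also lost without visceral fat Sham 4 (2.29, adjusted p = 0.0507 by edgeR).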

How the results depend on the processing

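Apart from leaving out 1 library, 577 of 670 fold changes, differences and correlations kept their direction and side of the threshold, 35 lost and 12 gained a call, 2 moved and 44 turned sign; of the 28 results that turned under any alternative none was called in the reported fit. The cause was not tested. Within a tissue, same-numbered samples of different arms had a median correlation of -0.023 in visceral fat, -0.065 in heart and -0.008 in kidney. Single pairs ran from -0.748 to 0.693, -0.529 to 0.495 and -0.624 to 0.722, so a median near 0 cannot exclude pairing of some samples. Pairing across tissues was not examined. With the replicate block, Cish, Igf1 and Socs1 in visceral fat were at 2.70, 1.61 and 1.48 for PNx against Sham (adjusted p = 0.0113, 0.0114 and 0.0362 by edgeR), Socs3 for NaKtide against scrambled cells was at -1.78 (0.202), and Socs3 in kidney at 1.99 (0.0888). Depth limits the low genes most, since Socs1 had 5 to 63 counts per fat sample.

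Members called in visceral fat for PNx against Sham were 3, among 2283 genes called in all. The count was 1 with the adipocyte covariate (239 genes), with 2 arms (384) or without Sham 1 and 4 (551). It was 6 by voom (4647) and 2 to 6 with 1 library left out. For NaKtide against scrambled cells the count was 1, among 414 genes called in all, and 2 by DESeq2 (1666 genes). It was 0 without a filter (393), with 2 arms (65), with the replicate block (179) or with the second library separate (315). It was also 0 by voom (841), without scrambled cells 2 and 4 (15) or without the liver-rich libraries (316). With 1 library left out it was 0 to 2. Against PNx, control cells gave 1 by DESeq2 (23 genes in all), voom (39) or without scrambled cells 2 and 4 (1). Scrambled cells gave 1 by DESeq2 (990) or voom (2278), and 0 to 1 with 1 library left out. NaKtide cells gave 3 by voom (3795). The reported fit gave 0 in each. NaKtide against control cells gave 2 by DESeq2 (316 genes in all) and 1 by voom (122) against 0. Voom also gave 1 against 0 in heart for scrambled cells against PNx and in kidney for NaKtide cells against PNx and against control cells. In kidney PNx against Sham there were 3 calls, among 2742 genes in all. They became 0 with the length index (518 genes), without a filter (1007), with 2 arms (146) or without the doubtful libraries (97). With 1 library left out they were 0 to 4. The 3 differences between tissues became 0 with Sham 2 alone, 1 without the doubtful heart and kidney libraries, and 2 to 9 with 1 library left out.

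The values that turned sign were these. In visceral fat PNx against Sham, Ghr, Stat5a and Stat5b were at -0.19, -0.26 and -0.16 with the adipocyte covariate and at -0.15, -0.44 and -0.32 with Sham 2 alone, and Stat5b was at -0.03 without Sham 1 and 4. In visceral fat NaKtide against scrambled cells, Ghr was at -0.11 with the length index, -0.30 by voom and -0.28 without scrambled cells 2 and 4, Socs1 at 0.24 by voom and 0.17 without those 2, and Igf1 at 0.01 by DESeq2, with its size factors or without the second library, 0.09 with the adipocyte covariate, 0.04 without a filter and 0.05 with 2 arms. In heart NaKtide against scrambled cells, Ghr, Socs1, Stat5a and Stat5b were at 0.07, -0.58, 0.03 and 0.04 with the length index and Socs1 at -0.36 by voom. In heart PNx against Sham, Ghr was at -0.05 with the length index, Ghr, Igf1 and Stat5a at -0.17, -0.27 and -0.02 without Sham 2 and 3 and PNx 5, and Igf1 at -0.54 by voom. In kidney NaKtide against scrambled cells, Cish was at -0.18 by voom, Ghr, Igf1, Stat5a and Stat5b at -0.09, -0.15, -0.06 and -0.02 with the length index, and Socs2 at 0.02 without a filter or with 2 arms, 0.05 with the replicate block, 0.00036 with the second library separate and 8.3e-05 without the doubtful libraries. In kidney PNx against Sham, Cyp2f2 was at -0.07 without the doubtful libraries, Socs2 at -0.02 without a filter, -0.03 with the replicate block and -0.44 by voom, and Stat5a at 0.09 with the length index. The correlation of Cish and Igf1 in visceral fat was -0.41 after subtraction of arm means, with an unadjusted permutation p of 0.0457.

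With 1 library left out, uncalled values that took both signs had these ranges. In heart NaKtide against scrambled cells they were -0.07 to 0.42 for Socs1, -0.23 to 0.19 for Socs2, -1.77 to 0.05 for Socs3, -0.20 to 0.02 for Stat5a and -0.22 to 0.11 for Stat5b. In heart PNx against Sham they were -0.10 to 0.14 for Ghr and -0.22 to 0.23 for Igf1. In kidney NaKtide against scrambled cells they were -0.51 to 0.12 for Cyp2f2, -0.04 to 0.15 for Ghr, -0.05 to 0.31 for Igf1, -0.16 to 0.23 for Socs2 and -0.04 to 0.07 for Stat5a. In kidney PNx against Sham they were -0.91 to 0.16 for Cish, -0.09 to 0.46 for Cyp2f2 and -0.24 to 0.20 for Socs2. In visceral fat NaKtide against scrambled cells they were -0.14 to 0.24 for Ghr, -0.17 to 0.24 for Igf1, -0.71 to 0.34 for Socs1 and -0.16 to 0.03 for Stat5a.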
